A study of Arabidopsis thaliana with 8 samples.

Results

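The 11277 regions described here were held by the ALOG protein LOS2 and by none of 6 other ALOG proteins tested on the same kind of DNA. Windows of all 7 lists that shared at least 1 bp were merged into 39850 regions, 29174 of which held a LOS2 window. Those without a window of any other list were kept, 38.7% of the LOS2 regions and 28.3% of all regions. The regions were chosen by the window positions in the 7 lists themselves, so their absence from the other lists is a description and not a finding.

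In ampDAP-seq a tagged protein is incubated with sheared and PCR-amplified genomic DNA, and the fragments pulled down with it are sequenced. The protein groups are LOS2, LOS1, LSH1, LSH2, LSH3, G1 and TMF, with 1 consensus list each, made from the peaks found in all 3 replicates. The proteins were produced by in vitro transcription and translation, and in every group the DNA came from Arabidopsis thaliana seedlings 2 weeks old. The labels name no ecotype, mutant allele or treatment. The series also has an input, not analysed here.

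As background, ALOG proteins take their name from Arabidopsis LSH1 and rice G1 and share a plant-specific DNA-binding domain. They act in meristems, organ boundaries and flowers. Rice G1 sets the identity of the sterile lemma, and tomato TMF delays the switch of the shoot meristem to flowering. LOS1 and LOS2 are known from the liverwort Marchantia, where LATERAL ORGAN SUPPRESSOR genes act on lateral organs and meristem activity. LOS2 therefore met DNA of a distant species, free of chromatin and methylation, and a window describes what the protein can hold in bare DNA rather than binding in a plant.

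LOS2 had the longest list, 29555 windows of 200 bp, against 21486 for LSH2, 17263 for LSH3, 14053 for LOS1, 13758 for LSH1, 13667 for TMF and 6902 for G1. The lists carry no score or read count, so depth is unknown. A binding property of LOS2 and a list called more deeply cannot be told apart. With 1 list per protein there is no replicate spread and no test between proteins. The 95% intervals below cover counting error over regions or genes only, by Wilson's method for shares and Newcombe's method for differences of shares.

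Nearly all of the regions were a single window. Of the 11277, 11204 held 1 LOS2 window of 200 bp, and 73 (0.647%, 95% interval 0.515 to 0.813%) joined 2 overlapping LOS2 windows into 326 to 399 bp. In the 17897 regions that LOS2 shared with other proteins, 1.67% held 2 LOS2 windows, a direction that the choice of regions favours, since a wider region is likelier to touch another list. In all, the regions of LOS2 alone held 11350 windows, 38.4% of the LOS2 list.

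Few cases lay within 50 bp of the requirement of 1 bp, and more lay within 1 window width of it. Just inside it, 77 regions lay 0 to 19 bp from a window of another protein and 131 lay 20 to 49 bp away. Just outside it, 83 LOS2 windows overlapped another protein's window by 1 to 20 bp and 103 by 21 to 50 bp. By contrast, 17859 LOS2 windows overlapped one by more than 100 bp. When at least 100 bp had to be shared, 11534 regions belonged to LOS2 alone. With windows up to 200 bp apart merged there were 9405, a setting that also joins neighbouring LOS2 windows.

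The regions lay on all 5 chromosomes, somewhat more densely on chromosome 1. Chromosome 1 held 3153 of them, chromosome 2 held 1817, chromosome 3 held 2138, chromosome 4 held 1691 and chromosome 5 held 2478. Their share among LOS2 regions was 40.7% on chromosome 1 (39.6 to 41.8%) and 37.5 to 38.2% on the other chromosomes. On chromosome 1 they numbered 104 per Mb, against 91.0 to 92.2 per Mb elsewhere. LOS2 regions shared with other proteins differed less between chromosomes, at 147 to 153 per Mb.

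Gene-poor DNA held fewer LOS2 regions of both kinds, in nearly the same ratio. With 500 kb bins ordered by coding-gene cover into 5 groups of 48, in the group with the least cover (0.889 to 31.9% of bases) there were 22.8 regions of LOS2 alone per bin, and in the group with the most (70.2 to 81.6%) there were 57.7. Their share of the LOS2 regions was 37.4% (35.6 to 39.1%) in the first of these and 39.3% (38.2 to 40.5%) in the other, and 37.8 to 39.2% in between.

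The place of the regions relative to genes set them apart from those LOS2 shared with other proteins only a little. Their centre lay inside a protein-coding gene in 64.0% of cases (63.2 to 64.9%), against 67.6% (66.9 to 68.3%) for shared LOS2 regions, a difference of -3.54 percentage points (-4.66 to -2.42). The difference was negative on each of the 5 chromosomes, from -4.40 points on chromosome 3 to -2.28 points on chromosome 5, where the interval of -4.62 to 0.046 included 0. Moved by 10 kb in both directions as a measure of local background, the regions of LOS2 alone lay inside genes in 60.2% of cases. The shared ones, moved likewise, did so in 60.4%. The observed shares were 1.06 and 1.12 times this background. Of the moved placements of LOS2 alone, however, 10.9% overlapped another protein's window, which the regions themselves cannot do by choice. The background of LOS2 alone is thus not like for like, and the ratios are not a fair contrast between the classes. Within 1000 bp outside a gene lay 19.02% of the regions of LOS2 alone (18.3 to 19.8%) and 17.1% of the shared ones (16.5 to 17.6%). Farther than 2000 bp from any gene the shares were 9.36% and 9.32%, with an interval of the difference of -0.637 to 0.736 points.

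Counted by the number of other proteins in the region, the share inside genes also differed with whether LSH2 was among them. The share was 64.0% with no other protein, 59.2% with 1 (57.6 to 60.9%), 63.7% with 2 (61.8 to 65.6%) and 69.5% with 3 (67.5 to 71.4%). It was 69.5% with 4, 71.1% with 5 and 72.6% with all 6 (71.1 to 74.2%). Without LSH2, however, the share was 77.4% (75.3 to 79.4%) with 1 other protein, 82.3% with 2 and 86.1% with 3. In the small classes without LSH2 it was 83.5% of 85 regions with 4 and 72.1% of 43 (57.3 to 83.3%) with 5. With LSH2 it was 43.3% with LSH2 as the single other protein, 56.4% with 2 and 65.7% with 3. With 4 and 5 others including LSH2 it was 69.1% and 71.1%, so the classes hardly differed at 5. The 64.0% of LOS2 alone was below each of these classes without LSH2, although the interval at 5 included it. It was above the first 2 classes with LSH2. Against regions of all 7 proteins, the regions of LOS2 alone were inside genes less often, with a difference of -8.61 points (-10.4 to -6.79).

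**Figure D1:**
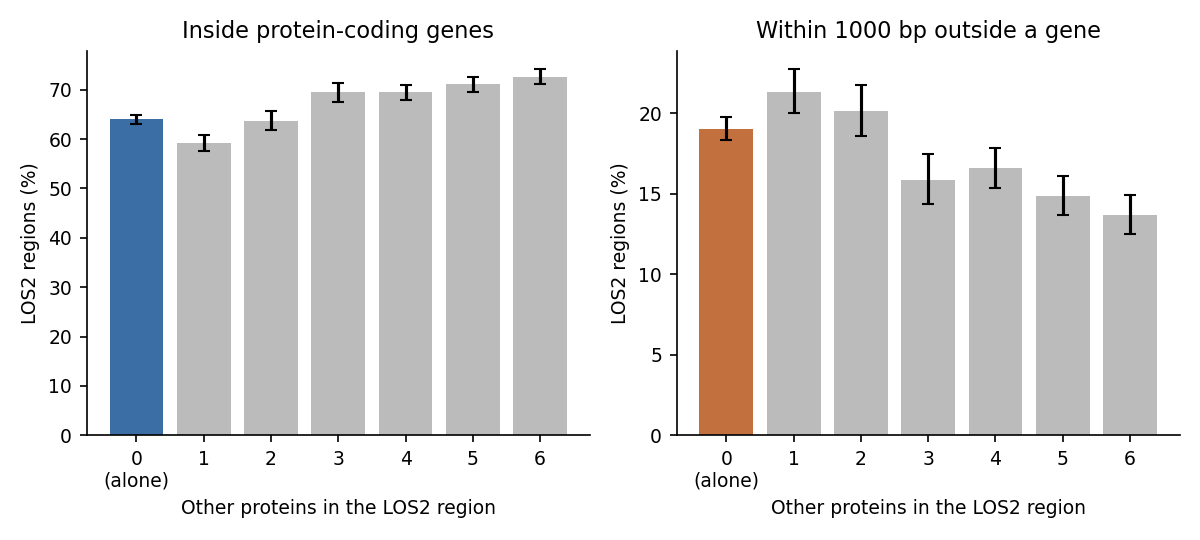
Share of LOS2 regions (%) with their centre inside a protein-coding gene (left) and within 1000 bp outside one (right), by the number of other proteins in the region; bars are shares and error bars 95% Wilson intervals. Regions of LOS2 alone, the coloured bars, reach 64.0% inside genes, between those with 1 other protein (59.2%, of which LSH2 was the partner in 1818 of 3410 regions) and those with 6 (72.6%).

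Where LOS2 shared a region with a single protein, the share inside genes was 43.3% for LSH2 and 72.3 to 85.9% for the other partners. By the number of other proteins, from 1 to 6, it was 59.2 to 72.6%, a range whose low end includes the regions with LSH2 only. Of regions held by LOS2 and LSH2 only, 43.3% (41.0 to 45.6%) lay inside genes and 31.5% within 1000 bp outside. LOS2 alone exceeded this class inside genes by 20.8 points (18.3 to 23.2). Of regions of LOS2 and LOS1 only, 72.3% (68.8 to 75.6%) lay inside genes, and the difference of LOS2 alone from them was -8.29 points (-11.7 to -4.66). Regions of LOS2 and LSH3 only had 82.0% (78.7 to 84.8%). The smaller classes of LOS2 with TMF, LSH1 or G1 only held 141, 86 and 85 regions, with 75.9, 79.1 and 85.9% inside genes.

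Regions that other proteins held alone lay elsewhere. For LSH1 alone the share inside genes was 84.9% (83.3 to 86.4%), and the difference of LOS2 alone from it was -20.9 points (-22.6 to -19.0). For LSH2 alone it was 56.7% (54.0 to 59.3%), and LOS2 alone stood 7.35 points higher (4.56 to 10.2). Regions of LSH3 alone (84.0%), LOS1 alone (84.8%, 76.7 to 90.4%) and G1 alone (80.4%) also had higher shares than those of LOS2 alone. TMF alone had 73.8% of 80 regions, with an interval of 63.2 to 82.1% that included the share of LOS2 alone.

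**Figure D2:**
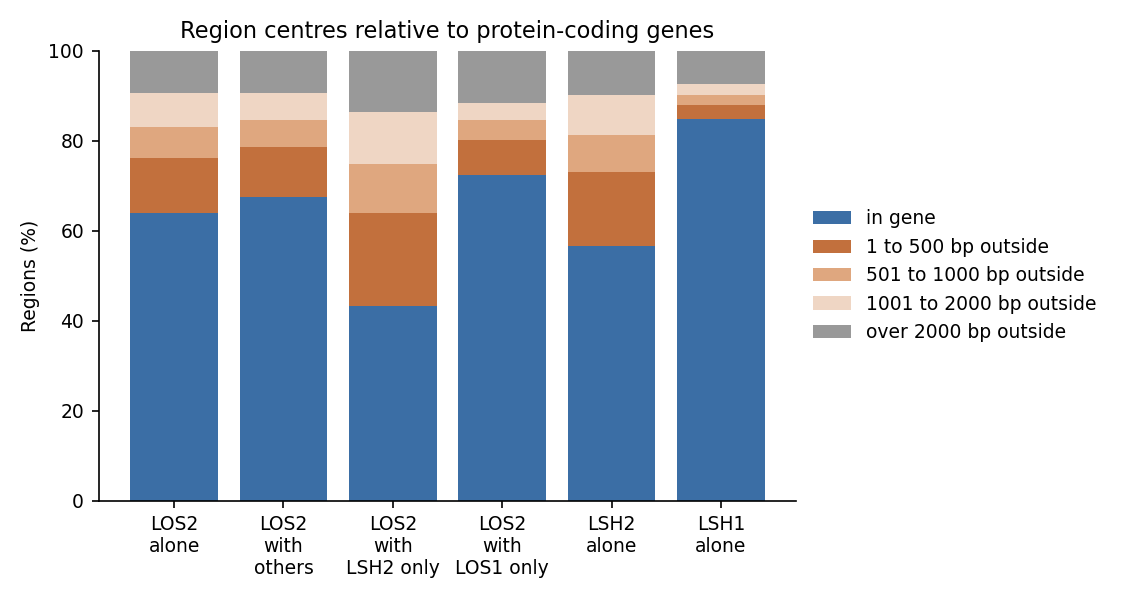
Share of region centres (%) inside protein-coding genes and at increasing distance outside them, for 6 classes of regions. LOS2 alone (64.0% inside genes) lies between LSH2 alone (56.7%) and LSH1 alone (84.9%), and the regions of LOS2 with LSH2 only have the smallest share inside genes, 43.3%.

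Regions of LOS2 alone were fewer than the background near gene ends and more frequent deep inside genes. These ratios do not account for gene length. A region of LOS2 alone in the gene body was present in 44.8% of genes of at least 3311 bp and 4.79% of genes up to 1146 bp. The background was again that of the regions moved by 10 kb. Inside genes, 200 to 400 bp from an end, lay 5.68% of the regions of LOS2 alone, 0.685 times the 8.30% of moved regions. At 1400 to 1600 bp inside, the observed 4.24% was 1.52 times the 2.80% of moved regions. Just outside, within 200 bp of an end, the ratio was 0.749, and between 200 and 2000 bp outside it ranged from 0.837 to 1.22 without a steady trend. Shared LOS2 regions had similar ratios inside genes, 0.743 at 200 to 400 bp and 1.41 at 1400 to 1600 bp. Outside genes their ratios were 0.747 to 0.899.

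LSH1 alone was arranged differently. Of its regions, 20.9% lay 200 to 400 bp inside a gene end, a ratio of 2.28 to moved regions, and its ratios outside within 1000 bp were 0.194 to 0.291. For LSH2 alone the ratio was 0.760 at 200 to 400 bp inside, and 0.957 to 1.38 within 1000 bp outside. The gene table used here has no strand and no exons, so starts and stops, and exons and introns, were not told apart.

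**Figure D3:**
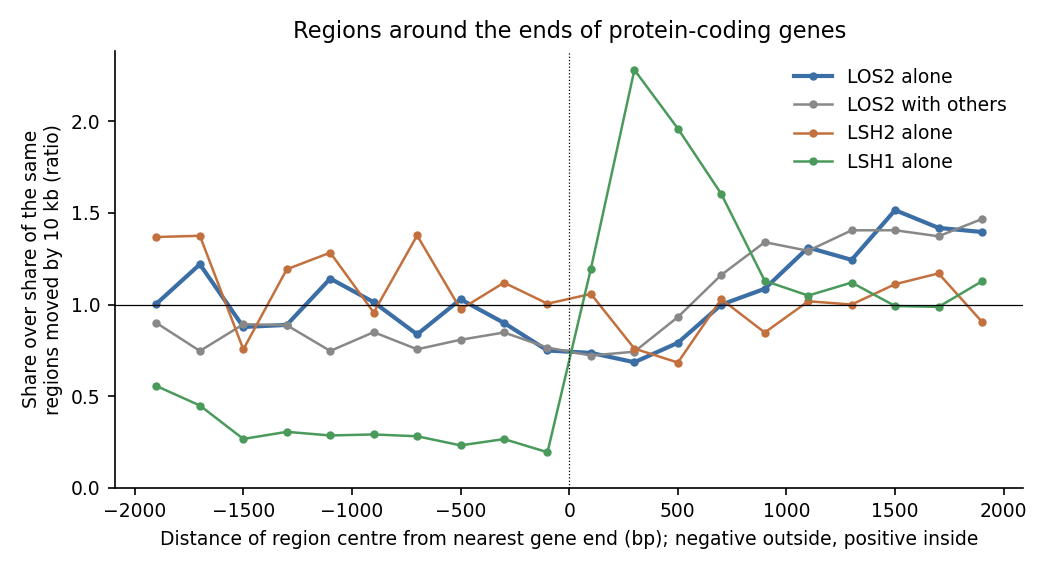
Share of regions per 200 bp of distance from the nearest end of a protein-coding gene, divided by the share of the same regions moved by 10 kb; negative distances are outside and positive ones inside genes. The line of LOS2 alone dips to 0.685 at 200 to 400 bp inside and reaches 1.52 at 1400 to 1600 bp, whereas that of LSH1 alone peaks at 2.28 at 200 to 400 bp.

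Few regions overlapped other annotated features. Pseudogenes were touched by 526 regions of LOS2 alone (4.66%, 4.29 to 5.07%), against 4.77% (4.46 to 5.09%) of shared LOS2 regions. Long non-coding and antisense RNA genes were touched by 1.67% (1.45 to 1.92%) of the regions of LOS2 alone and 2.15% (1.94 to 2.37%) of the shared ones. A tRNA gene was touched by 17 regions of LOS2 alone (0.151%, 0.0941 to 0.241%) and 15 shared ones (0.0838%, 0.0508 to 0.138%). For miRNA genes the counts were 9 (0.0798%) and 14 (0.0782%).

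Many of the regions had other proteins nearby, short of overlap. The nearest window of any other protein lay at a median gap of 1210 bp (quartiles 494 and 2564 bp). It was within 200 bp for 1197 regions (10.6%), within 1000 bp for 4924 (43.7%) and beyond 5000 bp for 907 (8.04%). Moved by 10 kb, and counting only placements without overlap, the regions had a median gap of 1397 bp, with 10.2% within 200 bp and 39.7% within 1000 bp. By protein, the median gap was smallest for LSH2 (1656 bp), followed by LSH3 (2098 bp), LOS1 (2494 bp), TMF (2592 bp), LSH1 (2724 bp) and G1 (5652 bp). This is the order of list length except for LSH1 and TMF, whose lists are nearly equal. LOS1, the other Marchantia protein, was within 200 bp of 637 regions (5.65%).

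Regions far from other proteins were less often inside genes. The share inside genes was 72.2% (69.6 to 74.6%) at gaps up to 200 bp, 71.7% (70.2 to 73.1%) above that up to 1000 bp, 60.2% (58.9 to 61.5%) above that up to 5000 bp and 44.9% (41.7 to 48.1%) beyond 5000 bp. The moved regions had the same order, with 72.3, 67.0, 54.7 and 39.98%. Beyond 5000 bp, 20.4% (17.9 to 23.1%) of the regions of LOS2 alone were over 2000 bp from a gene, against 29.5% of moved ones.

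The regions also lay close to one another at very short range. Between neighbouring regions of LOS2 alone the median gap was 6248.5 bp. Of 11272 neighbour pairs, 336 (2.98%) were less than 100 bp apart and 306 (2.71%) lay in the next 100 bp, against 165 (1.46%) at 200 to 299 bp and 90 (0.798%) at 900 to 999 bp. Shared LOS2 regions had 2.82% below 100 bp and 2.50% in the next 100 bp, followed by 2.43% at 200 to 299 bp. Regions of LOS2 alone numbered 94.7 per Mb and shared ones 150.2 per Mb, and pairs of the sparser class beyond 200 bp were fewer by about that ratio, at 1.22% and 2.05% for 300 to 399 bp. Below 200 bp the shares of the classes were close to each other. A peak divided by the caller and separate bound sites cannot be told apart without signal. The nearest shared LOS2 region lay at a median gap of 1833 bp, and within 200 bp for 1000 regions (8.87%).

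**Figure D4:**
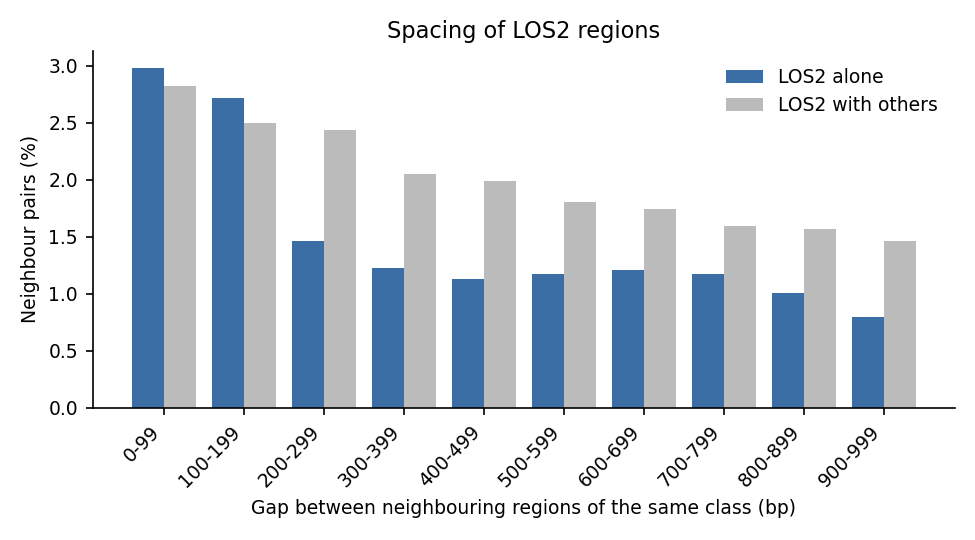
Share of neighbour pairs (%) by the gap in bp between successive regions of LOS2 alone and between successive LOS2 regions shared with other proteins. Regions of LOS2 alone have 2.98% and 2.71% of pairs in the first 2 bins and 1.46% in the next, while shared regions decline gradually from 2.82%.

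Regions of LOS2 alone were found at many genes, and most of these also had windows of other proteins, as did most genes. Of 27444 protein-coding genes, 12524 (45.6%) had such a region in the gene or within 2000 bp, and 5738 (20.9%) had one in the gene body. Any LOS2 window was present at 21276 genes (77.5%). Of the 12524 genes, 10115 (80.8%) also had a window of another protein, close to the 77.8% of all genes, and 3194 (25.5%) had windows of all 6 other proteins, against 22.9% of all genes. The other 2409 had none of any other protein. These 2409 genes, 8.78% of all genes, are called LOS2-only genes here. Of them, 1722 had 1 region, 534 had 2, 116 had 3, 27 had 4 and 10 had 5.

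Gene length went in opposite directions for these counts. The way of counting favours both directions, since the longer interval of a longer gene is likelier to hold a window of any protein. LOS2-only genes had a median length of 1762 bp, all genes 2078 bp, and genes with at least 1 region of LOS2 alone 2374.5 bp. With genes ordered by length into 5 groups of near-equal number, 32.4% of the shortest group had a region of LOS2 alone and 11.4% were LOS2-only, whereas in the longest group the shares were 62.0% and 5.03%.

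The 10 genes with the most regions of LOS2 alone in the gene body were all longer than the median gene. AT1G48090 (26499 bp), ATPI4K ALPHA (AT1G49340, 12623 bp), AT1G58060 (12607 bp) and AT5G49680 (12488 bp) had 7 each. ATPI4K ALPHA encodes a phosphatidylinositol 4-kinase. AT1G50140, AT1G67120, XIG, AT2G25730, AT4G03090 and AT4G39420 had 6 each. AT1G67120 is listed as MDN1, midasin, an ATPase of ribosome assembly, and XIG (AT2G20290) is a class XI myosin, a motor of the actin cytoskeleton. AT4G03090, listed as the nodulin homeobox gene NDX, was the shortest of them at 5505 bp and the densest, with 1.09 regions per kb against 0.229 to 0.636 in the other 9. Its 6 regions lay between 1369047 and 1371510 on chromosome 4. NDX is known as a repressor of COOLAIR, the antisense transcript of the flowering repressor FLC.

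In all 10 of these genes other proteins also had windows in the gene or its flanks. AT1G50140 had the fewest, 1 LSH2 window and 1 LSH3 window beside 6 regions of LOS2 alone in the gene body. Its regions lay between 18569680 and 18578243 on chromosome 1, at gaps of 334 to 6818 bp from the nearest window of another protein.

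The 10 LOS2-only genes with 5 regions were chosen for that number, so that a cluster of LOS2 regions at each of them follows from the choice. JAZ5 (AT1G17380), a repressor of jasmonate signalling, had 1 in the gene body at 5955471 to 5955670 on chromosome 1. It had 2 more on the side of its neighbour UBP1B, inside that gene, and 2 on the other side. The nearer of these lay at 5957454 to 5957653, with its centre 42 bp outside JAZ5 and its edge within it. BGLU4 (AT1G60090), a beta-glucosidase, had 1 in the gene body at 22156200 to 22156399 and 3 within 1346 bp on the side away from AT1G60080.

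EMB2247 (AT5G16715), a gene required for embryo development, carried 4 of its 5 in the gene body. They lay between 5486074 and 5492597 on chromosome 5, and the other lay in the neighbouring DHAR3, a dehydroascorbate reductase gene. AT1G05350, AT1G64050 and AT2G03667 each had 3 in the gene body. AT1G50740 and AT5G37620 had 2 each, and AT1G19600 and AT1G78922 1 each. The region in AT1G78922, at 29677288 to 29677487 on chromosome 1, also lay in VP2, which overlaps it. No region at these 10 genes was nearer than 576 bp to another protein's window, a distance that the choice of genes without such windows favours.

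Lists of developmental genes were then examined, with cytokinin and housekeeping genes beside them. Among floral identity genes, 7 of 19 (36.8%, 19.1 to 59.0%) had a region of LOS2 alone and 2 were LOS2-only, against 45.6% and 8.78% of all genes. PI (AT5G20240), which specifies petals and stamens with AP3, held a single LOS2 region in its gene body at 6830580 to 6830779 on chromosome 5. The nearest window of another protein was 4281 bp away. AP2 (AT4G36920), which specifies sepals and petals and restrains AG, had 1 region 938 bp from the gene, at 17399572 to 17399771 on chromosome 4, with the next protein 6282 bp away. SVP (AT2G22540), a floral repressor, had 2 regions of LOS2 alone in its gene body, and SEP2, a cofactor of floral organ identity, had 1. AP1, a floral meristem identity gene, had 1 at 245 bp from the gene. At these 3 genes other proteins had windows too.

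Flowering time genes had a region of LOS2 alone in 11 of 21 cases (52.4%, 32.4 to 71.7%), and 1 was LOS2-only. That gene was SOC1 (AT2G45660), an integrator of flowering signals, with 1 region in the gene body at 18808522 to 18808721 on chromosome 2, 6323 bp from the nearest window of another protein. GI (AT1G22770), a clock-linked activator of flowering, had 4 regions of LOS2 alone between 8062901 and 8065630 on chromosome 1, all in the gene body, beside 4 shared LOS2 regions. FCA, an RNA-binding protein that lowers FLC expression, had 3 in its gene body beside 5 shared ones. SPL3, a promoter of phase change, had 3 in its flanks, 2 of them inside the neighbour MBAC1, with windows of 5 other proteins at the gene.

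Organ boundary and KNOX/BELL genes had a region of LOS2 alone in 11 of 18 cases (61.1%, 38.6 to 79.7%). LOF2 (AT1G69560, MYB105), a MYB factor of organ separation, was LOS2-only, with 1 region 108 bp from the gene at 26157494 to 26157693 on chromosome 1. STM (AT1G62360), which maintains the shoot meristem, had 3 regions of LOS2 alone on one side of the gene, between 23062555 and 23063579 on chromosome 1 and 591 to 1416 bp from it. KNAT2, another KNOX gene, had 3 in its gene body between 26578582 and 26580722, and KNAT6 had 1 in the gene body and 1 in its flank. Windows of other proteins lay at these genes too, of 4 proteins at STM, 3 at KNAT2 and 6 at KNAT6.

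In the ALOG family itself 4 of 10 genes (40%, 16.8 to 68.7%) had a region of LOS2 alone and none was LOS2-only, a count that allows a share of up to 27.8% by the Wilson interval. LSH3 (AT2G31160) had 3 and LSH6 (AT1G07090) 2, all in flanks, with 1 of the LSH6 regions inside the neighbour AT1G07080. LSH10 had 1 region in its gene body, 186 bp from another protein's window. LSH9, named after its values were seen, had 1.

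Meristem and polarity genes held 3 LOS2-only genes of 21 (14.3%, 4.98 to 34.6%), and 11 of 21 (52.4%) had a region of LOS2 alone. CLV2 (AT1G65380), a receptor-like protein that limits meristem size, had 3 regions in its flanks, 1 of them inside the neighbour AT1G65370. The closest lay at 24290093 to 24290292 on chromosome 1, 863 bp from CLV2. PHV (AT1G30490), an HD-ZIP III factor of the upper leaf side, had 2 in the gene body, at 10797216 to 10797415 and 10799823 to 10800022 on chromosome 1, and 1 in its flank. KAN3 (AT4G17695), a KANADI factor of the lower leaf side, had 2 in the gene body between 9848900 and 9849562 on chromosome 4. YAB2, a YABBY factor of leaf blades, had 2 in the gene body, with windows of 4 other proteins at the gene.

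Cytokinin genes had a region of LOS2 alone in 20 of 37 cases (54.1%, 38.4 to 69.0%) and 1 LOS2-only gene. The housekeeping genes had 6 of 15 (40%, 19.8 to 64.3%) and none LOS2-only. In each of these 7 lists the interval included the share of all genes for both counts.

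Gene families, matched by name in the gene table, were mostly near the share of all genes as well. A region of LOS2 alone was present at 34 of 71 WRKY genes (47.9%), 66 of 132 MYB genes (50%) and 34 of 85 NAC genes (40%). The same held for 12 of 22 TCP (54.5%), 16 of 40 LBD (40%), 8 of 18 SPL (44.4%), 38 of 80 SAUR (47.5%), 23 of 52 RLP (44.2%) and 35 of 84 LCR genes (41.7%). Lower shares, with intervals that did not reach 45.6%, were those of ERF genes (6 of 30, 20%, 9.51 to 37.3%) and cytochrome P450 genes (94 of 250, 37.6%, 31.8 to 43.7%). UGT genes, which encode glycosyltransferases, had 22 of 64 (34.4%, 23.9 to 46.6%), with an interval that included it. Any LOS2 window was also less frequent at ERF (60%), cytochrome P450 (69.6%) and UGT genes (54.7%) than at all genes (77.5%). The lower shares are therefore not particular to regions of LOS2 alone. ERF genes are short, with a median of 1276.5 bp, and 39.4% of all genes of 1147 to 1789 bp had a region of LOS2 alone.

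LOS2-only genes made up more than the 8.78% of all genes in 3 families whose intervals lay above it. These were LCR with 18 of 84 (21.4%, 14.0 to 31.3%), SAUR with 13 of 80 (16.3%, 9.75 to 25.8%) and MYB with 21 of 132 (15.9%, 10.6 to 23.1%). No test over genes was made, 19 lists and families are given here, and neighbouring genes share regions. The 18 LCR genes rested on 21 distinct regions, the 13 SAUR genes on 13 and the 21 MYB genes on 28. LCR and SAUR genes are short, with median lengths of 602.5 bp and 815 bp. Of the shortest of the 5 length groups (up to 1146 bp) 11.4% were LOS2-only. The SAUR interval included this share and the LCR interval lay above it. MYB genes had a median length of 1796.5 bp, near the border between the next length groups. Of genes of 1147 to 1789 bp, 11.1% were LOS2-only, a share within the MYB interval. Of genes of 1790 to 2403 bp, 9.20% were, a share below it. The remaining families ranged from 0 of 18 for SPL to 4 of 22 for TCP (18.2%, 7.31 to 38.5%).

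**Figure D5:**
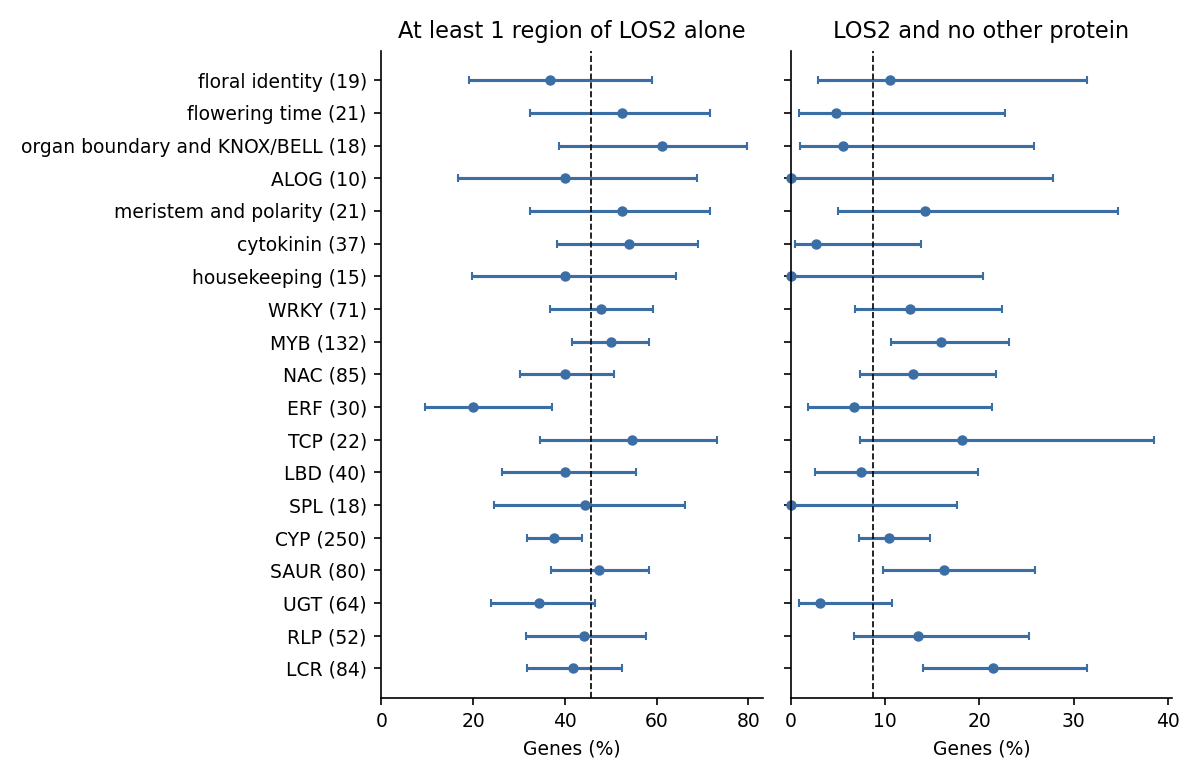
Share of genes (%) with at least 1 region of LOS2 alone (left) and share that are LOS2-only (right), in the gene or within 2000 bp, for 7 gene lists and 12 families with their gene numbers in brackets. Points are shares, bars 95% Wilson intervals, and dashed lines the shares of all 27444 genes, 45.6% and 8.78%. On the right the intervals of LCR, SAUR and MYB lie above the line, which does not account for gene length.

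The following genes of these families were chosen after their values were seen. Among LCR genes, which encode small cysteine-rich proteins related to defensins, PDF1.4 and LCR63 had 3 regions each, and PDF1.2, a defensin gene induced by jasmonate, had 1. TCP3, a factor of leaf shape, had 4 regions of LOS2 alone, 2 of them in its gene body. WRKY65 and NAC073, also listed as SND2 for its role in secondary walls, had 3 each. None of these genes had a window of another protein in the gene or within 2000 bp.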

How the data were processed

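ampDAP-seq lists of 7 tagged ALOG proteins were analysed; groups came from sample titles. Per the series' design text, only peaks found in all 3 replicates were kept. The submitters' processing notes name Bowtie2, SAMtools and MACS2, without versions. Settings and genome build: not given in the sources used here. As deposited, the lists hold other information than measurements: a chromosome, start and end per window of 200 bp, with no score or count per window.

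Windows sharing 1 bp or more were merged, and regions placed by their centre against 27444 protein-coding genes of RefSeq assembly TAIR10.1, used for names, lengths and nearby genes on the assumption that the lists have the same coordinates. Coordinates are those of the lists, counted from 1. For a local background, regions were moved by 10 kb both ways. Placements that overlapped another list were kept, except where gaps to other proteins were used. Distances to genes run from a region's centre, and gaps between regions from edge to edge. All 141 listed genes matched; families were matched by symbol or synonym, and 1 family is not reported here. Named genes were the 10 with most regions of LOS2 alone in the gene body, the 10 LOS2-only genes with most, and in the 5 developmental lists every LOS2-only gene and the 3 with most regions. Members and lists were chosen with earlier results of these data known. Planned motif and short-sequence analyses could not be made without a genome sequence. Python 3.11.15, numpy 2.4.6, pandas 2.3.3, scipy 1.17.1 and matplotlib 3.10.9 were used; the functions were tested on simulated lists.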

Additional observations from a re-analysis of the deposited data

How the results depend on the processing

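The number of regions of LOS2 alone stayed within 1.5 times 11277 with 100 bp of overlap required (11534), with windows up to 200 bp apart merged (9405) and with each other list left out (11364 without G1 to 13112 without LSH2). It was 5175 when windows up to 1000 bp apart were merged, which by construction joins neighbouring windows of different lists. The share inside protein-coding genes, 64.0%, was 66.7% with any overlap, 69.3% with all genes of the table and 58.0% for regions over 1000 bp from another list; it was 64.0% for single-window regions and 64.1% by the centre of each LOS2 window, a setting chosen after seeing the data. The difference from shared LOS2 regions was negative in the 4 settings in which it was computed, -4.07 to -3.48 points. The genes with a region of LOS2 alone numbered 9321 with flanks of 1000 bp and 5738 in gene bodies, which are shorter by construction; LOS2-only genes numbered 2780 and 2354. No paired analysis was possible because each protein has 1 consensus list, and no replicate could be left out. The motif alternatives were not run. Without scores or read counts, list length and depth cannot be told apart from binding.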

Other observations

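In 227 bins of 500 kb with at least 50 LOS2 regions, the median share of regions of LOS2 alone was 38.6%. The highest shares were 52.9% (74 of 140 regions, 95% Wilson interval 44.6 to 60.9%) on chromosome 1 between 28.5 and 29 Mb and 49.6% (62 of 125, 41.0 to 58.2%) on chromosome 1 between 4 and 4.5 Mb. The lowest were 26.0% (19 of 73, 17.3 to 37.1%) on chromosome 4 between 2.5 and 3 Mb and 26.3% (40 of 152, 19.96 to 33.8%) on chromosome 2 between 7.5 and 8 Mb. The bins were picked as extremes, and no test was made.

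The region of LOS2 alone farthest from any other protein's window lay on chromosome 3 at 13880563 to 13880762, with a gap of 52980 bp and 140024 bp from the nearest protein-coding gene. The next lay on chromosome 3 at 13152952 to 13153151 (gap 42733 bp) and on chromosome 1 at 14671682 to 14671881 (gap 41460 bp).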
